A study of Mus musculus with 12 samples.

Results

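Glycogen is the branched glucose store of the liver. Glucose enters it as uridine diphosphate glucose, which glycogen synthase adds to chains begun by glycogenin and joined by the branching enzyme, and glycogen phosphorylase releases it again as glucose 1-phosphate. Protein phosphatase 1 (PP1) activates the synthase and inactivates the phosphorylase, and it is brought to the glycogen particle by targeting subunits of the Ppp1r3 family. The 8 genes described here, chosen by name, are Ugp2, Gyg, Gys2, Gbe1, Pygl, Ppp1r3b, Ppp1r3c and Ppp1r3g. Each was found as a single row among the 55385 features of the table, and all 8 were among the 16378 features tested, those averaging 1 TPM or more over the mice (TPM is a level corrected for gene length and scaled to the same total in every mouse).

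Livers of 12 male C57BL/6 mice were sequenced, 4 in each of 3 groups. The mice were 7 weeks old when they received adenovirus and were killed 7 days later. Ad-Ctrl mice received the control virus (Lac+pAdV5), Ad-shmGULL mice a short hairpin RNA against the mouse lncRNA mGULL (sh-mGULL+pAdV5), and Ad-shmGULL+hGULL mice the same hairpin together with the human lncRNA hGULL, so that every mouse carried adenovirus and the rescue mice carried the knockdown virus too. The question was which genes follow the loss of mGULL and whether hGULL brings them back. The levels of mGULL and hGULL themselves were not analysed here, and the feeding state of these mice at collection is not given in the sources used here.

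The libraries had the profile of liver. The 6 hepatocyte markers summed to between 61710 and 102600 TPM, whereas the 4 skeletal muscle markers, which check for tissue that uses the muscle synthase and phosphorylase, summed to between 0.400 and 4.32 TPM. Sequencing depth is unknown from TPM. The scale of the mice differed: the median-of-ratios size factor, a mouse's typical level relative to all 12, ran from 0.859 in Ad-Ctrl replicate 2 to 1.14 in Ad-shmGULL replicate 2, and all 4 rescue mice lay between 1.05 and 1.12.

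Pygl, Ppp1r3g and Ppp1r3c hold a searched motif in the 250 bases before their start sites, and their sequences are shown because CREB and SREBP1 are the factors that the study places downstream of GULL. Sequences are from RefSeq on GRCm38.p6, written 5′ to 3′ on the gene's strand, with the match in capitals. The Pygl window is chr12:70227684-70227933 on the minus strand, that of Ppp1r3g chr13:35967656-35967905 on the plus strand and that of Ppp1r3c chr19:36736605-36736854 on the minus strand.
Pygl: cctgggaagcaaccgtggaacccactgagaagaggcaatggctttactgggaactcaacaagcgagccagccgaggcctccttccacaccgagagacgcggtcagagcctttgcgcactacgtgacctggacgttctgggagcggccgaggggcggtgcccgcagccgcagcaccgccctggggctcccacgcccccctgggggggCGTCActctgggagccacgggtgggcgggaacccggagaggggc
Ppp1r3g: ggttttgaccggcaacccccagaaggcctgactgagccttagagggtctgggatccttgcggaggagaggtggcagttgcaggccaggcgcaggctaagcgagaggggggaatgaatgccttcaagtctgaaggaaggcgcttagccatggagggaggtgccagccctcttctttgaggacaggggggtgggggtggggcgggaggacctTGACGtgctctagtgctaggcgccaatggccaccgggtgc
Ppp1r3c: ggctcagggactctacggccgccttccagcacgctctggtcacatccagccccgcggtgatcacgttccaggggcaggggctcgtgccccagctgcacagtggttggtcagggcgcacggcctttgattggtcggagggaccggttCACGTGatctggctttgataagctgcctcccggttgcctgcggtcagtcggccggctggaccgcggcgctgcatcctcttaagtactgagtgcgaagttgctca

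Pygl carried the core of the cyclic AMP response element, TGACG, on the opposite strand at 44 bases before the start, and Ppp1r3g carried it on its own strand at 40 bases. The Ppp1r3g window lies inside the RefSeq span of its gene, chr13:35958824-35970388, so that start site is an internal one and not the outer end of the gene. Ppp1r3c carried an E-box, CACGTG, at 104 bases. The core was present in 17.8% of the 32851 promoter windows of the same length and the E-box in 6.02%, both strands being searched. The full element, TGACGTCA, which contains the core, and the sterol element, TCACNCCAC, were in 1.55% and 1.05% of all windows and in none of the 7 windows of the 6 glycogen genes that had any (Ugp2 had 2). Gyg, Ugp2 and Gbe1 held no match, and Gys2 and Ppp1r3b had no window. A match of letters is a description and says nothing about binding.

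After mGULL knockdown the livers contained more mRNA for the phosphorylase and for a pair of PP1 targeting subunits, while the synthase differed little. Pygl rose 1.55-fold, Ppp1r3b 1.81-fold and Ppp1r3g 2.63-fold in Ad-shmGULL over Ad-Ctrl (ratios of mean TPM, n = 4 mice each). Ppp1r3c, the targeting subunit known as PTG, lay lower in every Ad-shmGULL mouse than in any Ad-Ctrl mouse, at 0.743 of the control mean. As deposited, Ppp1r3c did not pass the study's threshold (log2 difference -0.43, limma adjusted p = 0.11). The share of all tested genes whose groups lie apart in this way is not given here. In the rescue mice Pygl and Ppp1r3b were above control, and Ppp1r3g alone passed the threshold between rescue and knockdown, downwards. Whole liver was sequenced, so fewer cells of a type and less RNA per cell cannot be told apart.

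The study's threshold for a changed gene, which asks for a shift of more than 0.5 on the log2 scale and a P value below 0.05 before adjustment, was applied to limma fits of log2(TPM + 1). Between Ad-shmGULL and Ad-Ctrl, 4 of the 8 genes passed it upwards (Gbe1, Pygl, Ppp1r3b and Ppp1r3g) and 0 downwards, where 5.35% of all tested genes passed upwards and 2.30% downwards. At an adjusted p under 0.05 (Benjamini-Hochberg over all 16378 genes) 3 were called, Pygl, Ppp1r3b and Ppp1r3g, against 3.23% of all genes. The median log2 fold change was 0.43 over the 8 genes and 0.087 over all genes. The 3 comparisons share mice: both contrasts with control use the same Ad-Ctrl livers, and both with knockdown the same Ad-shmGULL livers. The p-values measure the spread between these mice, for which the labels give no cage, litter or batch.

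**Figure D1:**
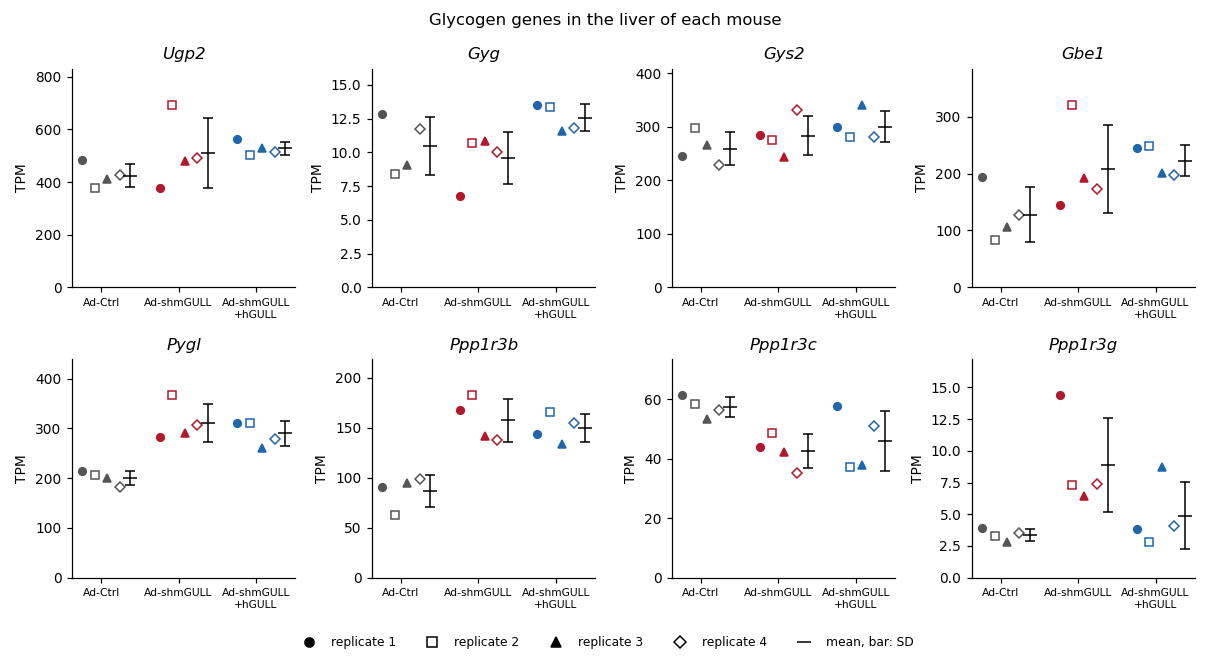
Level of each of the 8 glycogen genes in TPM (y axes, from 0) in the 12 livers by group; symbols mark replicate numbers, and the black bar beside each group is the mean with its SD. The 4 Ad-shmGULL mice lie above all Ad-Ctrl mice for Pygl, Ppp1r3b and Ppp1r3g and below them for Ppp1r3c, and the rescue mice stay above Ad-Ctrl for Pygl and Ppp1r3b. Ppp1r3c did not pass the study's threshold as deposited.

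Ugp2 (a protein-coding gene at chr11:21321126-21371267 of GRCm38.p6 in RefSeq, as are the positions that follow) makes uridine diphosphate glucose, the sugar donor, and had the highest level of the 8, at a mean of 487 TPM over all mice. It was at 482, 379, 411 and 425 TPM in Ad-Ctrl replicates 1 to 4, at 377, 692, 479.6 and 491 TPM in Ad-shmGULL, and at 562, 504, 529 and 514 TPM in Ad-shmGULL+hGULL. The Ad-shmGULL mice spanned both the lowest and the highest of the 12 levels, whereas the rescue mice lay close together and all above the control mice. The log2 difference was 0.24 ± 0.15 (SE) from control to knockdown and 0.32 ± 0.15 from control to rescue, with limma adjusted p = 0.41 and 0.20.

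Gyg (chr3:20122083-20155117) encodes glycogenin, the protein primer, and was among the lowest of the 8. Its levels were 12.8, 8.36, 9.02 and 11.7 TPM in Ad-Ctrl, 6.73, 10.7, 10.8 and 10.0 TPM in Ad-shmGULL, and 13.5, 13.3, 11.6 and 11.8 TPM in the rescue group. The rescue mice were all above the knockdown mice, and the control mice overlapped both. The difference between rescue and knockdown, 0.38 ± 0.16 on the log2 scale, was below the threshold of 0.5 (limma adjusted p = 0.43).

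Gys2 (chr6:142422612-142473130), the liver glycogen synthase, had the group means closest together. It was measured at 246, 299, 266 and 228 TPM in Ad-Ctrl, 285, 275, 244 and 331 TPM in Ad-shmGULL, and 300.5, 281, 341 and 281 TPM in Ad-shmGULL+hGULL. The ranges of the 3 groups overlapped. Its log2 differences were 0.13 ± 0.11 for knockdown against control and 0.21 ± 0.11 for rescue against control (limma adjusted p = 0.57 and 0.25), and after median-of-ratios scaling they were 0.016 and 0.010.

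Gbe1 (chr16:70313949-70569720), the branching enzyme, was the most variable of the enzymes. It stood at 195, 83.9, 106 and 127 TPM in the Ad-Ctrl mice, at 145, 321, 192 and 173 TPM in the Ad-shmGULL mice, and at 244, 249, 200.4 and 198 TPM in the rescue mice. The control and knockdown ranges overlapped, and each rescue mouse lay above the highest control mouse. The coefficient of variation was 37.4% in both Ad-Ctrl and Ad-shmGULL and 12.3% in the rescue group.

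Gbe1 passed the threshold against control in the knockdown (log2 difference 0.70 ± 0.26) and in the rescue group (0.86 ± 0.26), but the limma adjusted p was 0.15 and 0.084. The knockdown call rested on 2 mice and was lost without either. Without Ad-Ctrl replicate 2 the difference was 0.52 (limma adjusted p = 0.35) and without Ad-shmGULL replicate 2 it was 0.47 (adjusted p = 0.32). These were also the mice with the lowest and the highest size factor. With median-of-ratios scaling Gbe1 still passed the threshold against control in the knockdown (0.59) and in the rescue group (0.65). The limma adjusted p was then 0.14 and 0.20. Ad-Ctrl replicate 2 had the lowest control level of Ugp2, Gyg, Gbe1 and Ppp1r3b, and Ad-shmGULL replicate 2 had the highest knockdown level of Ugp2, Gbe1, Pygl, Ppp1r3b and Ppp1r3c.

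Pygl (chr12:70190815-70227683), the liver glycogen phosphorylase, catalyses the release of glucose 1-phosphate. Its levels were 214, 206, 200.3 and 181 TPM in Ad-Ctrl, 282, 366, 290.1 and 306 TPM in Ad-shmGULL, and 312, 310.0, 262 and 278 TPM in Ad-shmGULL+hGULL. Every knockdown and every rescue mouse was above every control mouse, and the knockdown and rescue ranges overlapped. Pygl rose by 0.63 ± 0.10 on the log2 scale after knockdown (limma adjusted p = 0.0099) and was 0.53 ± 0.10 above control in the rescue group (adjusted p = 0.038). Rescue differed from knockdown by -0.10 ± 0.10 (adjusted p = 0.71). With median-of-ratios scaling the knockdown difference was 0.52 (limma adjusted p = 0.0091) and the rescue difference against control 0.33 (adjusted p = 0.12), below the threshold. As deposited, the rescue difference against control was also just below the threshold, at 0.48, 0.50 and 0.50, without Ad-Ctrl replicate 4, rescue replicate 1 or rescue replicate 2.

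The ratio of Gys2 to Pygl sets synthase against phosphorylase mRNA within each mouse and does not depend on scaling between mice. It was 1.15, 1.45, 1.33 and 1.26 in the 4 Ad-Ctrl livers, 1.01, 0.750, 0.840 and 1.08 in the Ad-shmGULL livers, and 0.964, 0.905, 1.30 and 1.01 in the rescue livers. All knockdown mice lay below all control mice, while rescue replicate 3 lay within the control range. The log2 difference was -0.50 between knockdown and control (exact two-sided permutation p = 0.0286, the smallest that 4 against 4 mice allow) and -0.32 between rescue and control (exact permutation p = 0.0857). Over the 21 tests of 7 ratios in 3 comparisons the smallest p adjusts to 0.2, so that none passed after adjustment.

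Among the PP1 targeting subunits, Ppp1r3b (chr8:35375694-35388139, known as GL, the main liver form) was the most abundant. It was at 90.4, 63.1, 95.2 and 99.1 TPM in Ad-Ctrl, 168, 182, 142 and 138 TPM in Ad-shmGULL, and 144, 166, 134 and 155 TPM in Ad-shmGULL+hGULL. The lowest knockdown or rescue mouse exceeded the highest control mouse, and knockdown and rescue overlapped. Ppp1r3b rose by 0.86 ± 0.14 on the log2 scale after knockdown (limma adjusted p = 0.011) and was 0.79 ± 0.14 above control in the rescue group (adjusted p = 0.038), and the rescue-to-knockdown difference was -0.07 ± 0.14 (adjusted p = 0.87). After median-of-ratios scaling the differences against control were 0.75 and 0.59, the latter with a limma adjusted p of 0.10.

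Ppp1r3c (chr19:36731731-36736604) lay lower after knockdown, not higher. Levels of 61.3, 58.5, 53.3 and 56.4 TPM in Ad-Ctrl stood against 44.0, 48.8, 42.4 and 35.3 TPM in Ad-shmGULL and 57.9, 37.2, 37.8 and 51.1 TPM in the rescue group. The 4 knockdown mice were below the 4 control mice, and of the rescue mice replicates 1 and 4 lay above the knockdown levels and replicates 2 and 3 among them. The log2 difference was -0.43 ± 0.14 for knockdown against control (limma adjusted p = 0.11) and -0.34 ± 0.14 for rescue against control (adjusted p = 0.16), both short of the threshold. Scaled by the median of ratios they were both -0.54, past the threshold, with limma adjusted p = 0.049 and 0.13.

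The balance of these subunits differed accordingly within each mouse. The ratio of Ppp1r3c to Ppp1r3b was 0.678, 0.927, 0.559 and 0.570 in Ad-Ctrl, 0.262, 0.268, 0.299 and 0.256 in Ad-shmGULL, and 0.402, 0.224, 0.282 and 0.329 in Ad-shmGULL+hGULL. No knockdown or rescue mouse reached the lowest control ratio. The log2 difference from control was -1.31 in the knockdown and -1.15 in the rescue group (exact two-sided permutation p = 0.0286 each, adjusted p = 0.2 over the 21 tests), and rescue and knockdown differed by 0.16 (exact permutation p = 0.457).

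**Figure D2:**
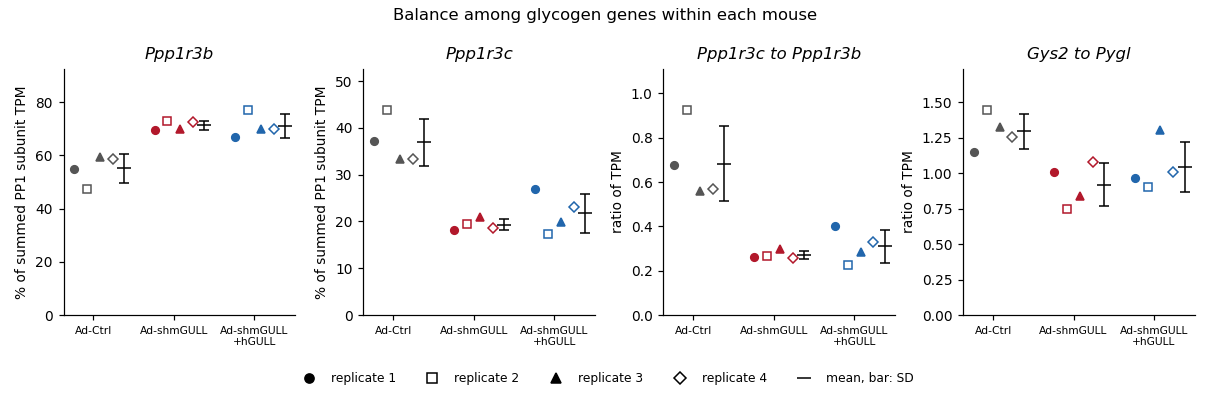
Share of Ppp1r3b and of Ppp1r3c in the summed TPM of 7 PP1 glycogen-targeting subunits (left, percent), and the ratios of Ppp1r3c to Ppp1r3b and of Gys2 to Pygl (right, ratio of TPM), in the 12 livers; symbols mark replicate numbers and the black bars give mean and SD. All Ad-shmGULL and rescue mice lie below the Ad-Ctrl mice for Ppp1r3c to Ppp1r3b, whereas rescue replicate 3 lies within the control range for Gys2 to Pygl.

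Seen as a pool, the 7 PP1 glycogen-targeting subunits (Ppp1r3a to Ppp1r3g) summed to 156.7 ± 16.2 TPM in Ad-Ctrl, 221 ± 29.6 TPM in Ad-shmGULL and 210.7 ± 13.5 TPM in Ad-shmGULL+hGULL (mean ± SD, n = 4). Ppp1r3b supplied 55.1% ± 5.51 of that sum in control, 71.3% ± 1.72 in knockdown and 71.1% ± 4.36 in rescue livers. Ppp1r3c supplied 37.0% ± 4.99, 19.3% ± 1.19 and 21.8% ± 4.16. The shares of both genes in each knockdown and rescue mouse lay outside the control range.

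Ppp1r3g (chr13:35958824-35970388), a subunit known to be raised by fasting in the liver, had the lowest level and the largest relative difference. It was at 3.88, 3.29, 2.81 and 3.50 TPM in Ad-Ctrl, 14.4, 7.27, 6.43 and 7.40 TPM in Ad-shmGULL, and 3.86, 2.85, 8.75 and 4.04 TPM in the rescue group. All knockdown mice exceeded all control mice. In the rescue group replicates 1 and 2 were in the control range, replicate 4 lay just above it, and replicate 3 was in the knockdown range.

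Ppp1r3g rose by 1.12 ± 0.28 on the log2 scale after knockdown (limma adjusted p = 0.048, and 0.072 with median-of-ratios scaling). Between rescue and knockdown its log2 difference was -0.78 ± 0.28, past the study's threshold, with a limma adjusted p of 0.40. This call depended on 2 mice and was lost without either. Without Ad-shmGULL replicate 1, the highest of all, the difference was -0.54 (limma adjusted p = 0.69), and without rescue replicate 2 it was -0.60 (adjusted p = 0.67). Against control the rescue group differed by 0.34 ± 0.28 (adjusted p = 0.45). Relative to Ppp1r3b, its log2 ratio differed by 0.46 between knockdown and control and by -0.85 between rescue and knockdown (exact two-sided permutation p = 0.2 and 0.114).

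For the rescue, then, 1 of the 8 genes passed the threshold against knockdown, Ppp1r3g downwards, where 0.672% of all tested genes passed downwards, and 0 passed upwards against 2.33% of all genes. At an adjusted p under 0.05 in limma the share called was 0 both among the 8 and among all genes (1757 genes had an unadjusted p under 0.05, and the smallest adjusted p was 0.117). The median log2 difference was 0.085 for the 8 genes and 0.093 for all. Rescue against control called 3 of the 8 upwards (Gbe1, Pygl and Ppp1r3b) and 0 downwards, beside 6.84% and 0.641% of all genes, and 2 at an adjusted p under 0.05 (Pygl and Ppp1r3b), beside 2.15%. The median difference in that contrast was 0.33 for the 8 and 0.17 for all genes, a shift of all genes that median-of-ratios scaling takes away. With that scaling the 8 genes had a median of 0.15 and 0 calls at an adjusted p under 0.05, where 11 of all 16378 genes were called. At the study's threshold Gbe1 and Ppp1r3b then passed upwards and Ppp1r3c downwards, beside 481 and 240 of all genes.

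**Figure D3:**
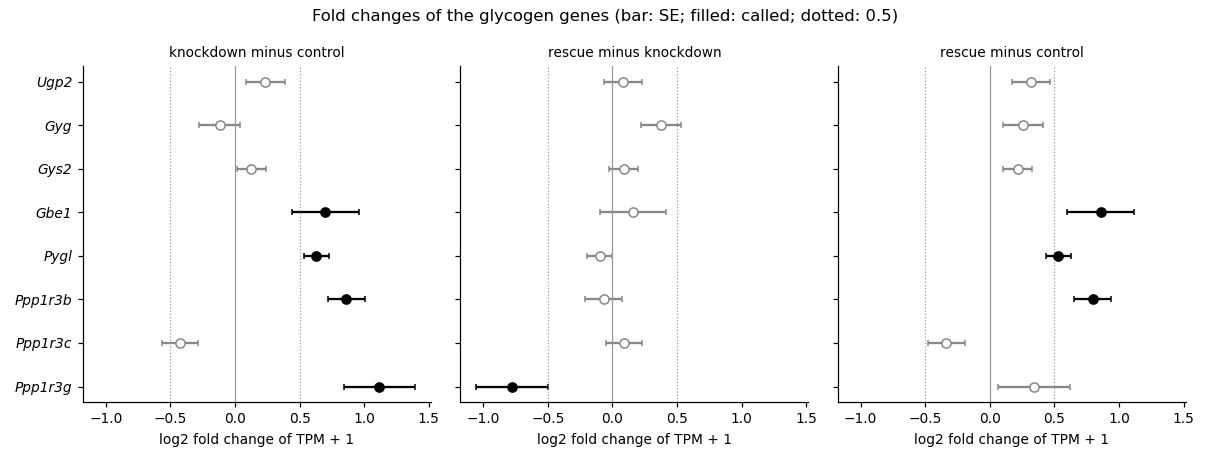
Log2 fold change of TPM + 1 (x axes) for the 8 glycogen genes in the 3 comparisons; bars are SE from the limma fit, filled points passed the threshold of 0.5 (dotted lines) with unadjusted P under 0.05. Gbe1, Pygl and Ppp1r3b are filled against control in both hairpin groups, and Ppp1r3g is filled after knockdown and, downwards, between rescue and knockdown.

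A wider list of 33 other genes of glycogen metabolism was examined in the same fits, of which 28 were tested. Against control, 4 passed the threshold upwards in the knockdown (Pygb, Ppp1r1b and G6pc among them) and 0 downwards, and 4 had an adjusted p under 0.05 in limma (G6pc, Pgm1, Ppp1ca and Ppp1r1b), beside the shares of all genes given above for that contrast. In the rescue against control 6 passed upwards (Pygb, Gsk3a, Ppp1ca, Ppp1r1b and G6pc among them) and 0 downwards, with 5 at an adjusted p under 0.05. Between rescue and knockdown 0 passed. The median log2 difference of the list was 0.20, 0.25 and 0.031 in these comparisons, beside 0.087, 0.17 and 0.093 for all genes. Of the 28, 23 and 25 were above 0 against control in the knockdown and the rescue as deposited, and 19 and 16 after median-of-ratios scaling, which removes the shift of all genes.

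Pygb, the brain phosphorylase, was much lower than Pygl at 7.15 ± 3.34, 11.3 ± 3.55 and 11.1 ± 2.53 TPM. Pygb passed the threshold in both contrasts with control (0.64 ± 0.27 in each), with limma adjusted p = 0.21 and 0.17 and overlapping groups. Gaa, the lysosomal glucosidase, was at 72.6 ± 2.18, 73.9 ± 5.09 and 78.5 ± 1.76 TPM.

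Other isoforms of the synthase and the phosphorylase were far lower than the liver forms. Gys1, the muscle synthase, was at 3.50 ± 0.381 TPM in Ad-Ctrl, and Gys2 exceeded it 75.4-fold, 87.8-fold and 69.2-fold in the 3 groups. Pygm, the muscle phosphorylase, was at 1.02 ± 0.203, 1.18 ± 0.356 and 1.12 ± 0.210 TPM, and Pygl exceeded Pygb 33.2-fold, 28.7-fold and 26.9-fold. Neither the ratio of Gys2 to Gys1 nor that of Pygl to Pygb separated any pair of groups.

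Of the catalytic PP1 subunits, the PP1 inhibitors and the synthase kinases, Ppp1ca, Ppp1r1b and Gsk3a passed the threshold in a contrast with control, and Ppp1cb, Ppp1cc, Ppp1r2 and Gsk3b did not. Ppp1ca, the most abundant catalytic subunit, was at 127 ± 16.4 TPM in control, 172 ± 12.2 in knockdown and 181 ± 16.1 in rescue livers (log2 differences from control 0.44 ± 0.10 and 0.51 ± 0.10, limma adjusted p = 0.037 and 0.039), without overlap with control. Ppp1r1b, a PP1 inhibitor also known as DARPP-32, rose from 2.68 ± 0.270 to 4.56 ± 0.523 TPM after knockdown and was at 4.87 ± 0.458 TPM in the rescue (0.60 ± 0.11 and 0.67 ± 0.11, adjusted p = 0.019 and 0.036). Ppp1r2, the inhibitor with the highest level, was at 20.0 ± 1.61, 22.7 ± 2.26 and 22.0 ± 1.42 TPM. Gsk3a, a kinase that inactivates glycogen synthase, passed the threshold in rescue against control and in neither other contrast, at 53.8 ± 6.61 TPM in control, 69.1 ± 10.1 in knockdown and 76.4 ± 4.76 in rescue (0.35 ± 0.11 and 0.50 ± 0.11, adjusted p = 0.099 and 0.044); the difference between rescue and knockdown was 0.15 ± 0.11 (adjusted p = 0.62). With median-of-ratios scaling the rescue differences from control were 0.30 for Ppp1ca, 0.30 for Gsk3a and 0.51 for Ppp1r1b (limma adjusted p = 0.12, 0.17 and 0.12), so that the calls of Ppp1ca and Gsk3a were lost and that of Ppp1r1b was not.

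Of the genes with the highest level in the other roles, Pgm1, which interconverts glucose 1-phosphate and glucose 6-phosphate, was at 260.5 ± 30.4, 355 ± 34.7 and 312 ± 9.38 TPM, with a log2 difference of 0.45 ± 0.09 after knockdown (limma adjusted p = 0.028) that stayed under the threshold. Stbd1, a glycogen-binding protein, was at 122 ± 19.3, 169 ± 40.1 and 162 ± 17.1 TPM (0.45 ± 0.15 after knockdown, adjusted p = 0.12). Phka2, a regulatory subunit of phosphorylase kinase, was at 22.1 ± 2.08, 25.0 ± 3.64 and 26.3 ± 1.64 TPM and Ppp1r3e, the remaining tested targeting subunit, at 7.70 ± 0.620, 10.7 ± 2.23 and 8.59 ± 0.954 TPM, and neither passed the threshold. G6pc, the phosphatase subunit that frees glucose for export, was at 505 ± 52.8, 970.1 ± 151 and 734 ± 70.2 TPM, 0.93 ± 0.12 above control after knockdown (adjusted p = 0.0061) and at -0.39 ± 0.12 in the rescue against the knockdown group (adjusted p = 0.37). With median-of-ratios scaling 1 of the list's 6 upward calls in rescue against control was kept, Ppp1r1b, and 1 gene passed downwards, Epm2a (-0.55, limma adjusted p = 0.15, against -0.38 as deposited). Epm2a, the glycogen phosphatase laforin, was named after its values were seen. It also passed downwards after knockdown with that scaling (-0.55, adjusted p = 0.062, against -0.46 as deposited), where G6pc, Pygb and Ppp1r1b passed upwards. Of all 16378 genes with that scaling, 608 passed upwards and 571 downwards after knockdown. In rescue against control 481 passed upwards and 240 downwards.

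**Figure D4:**
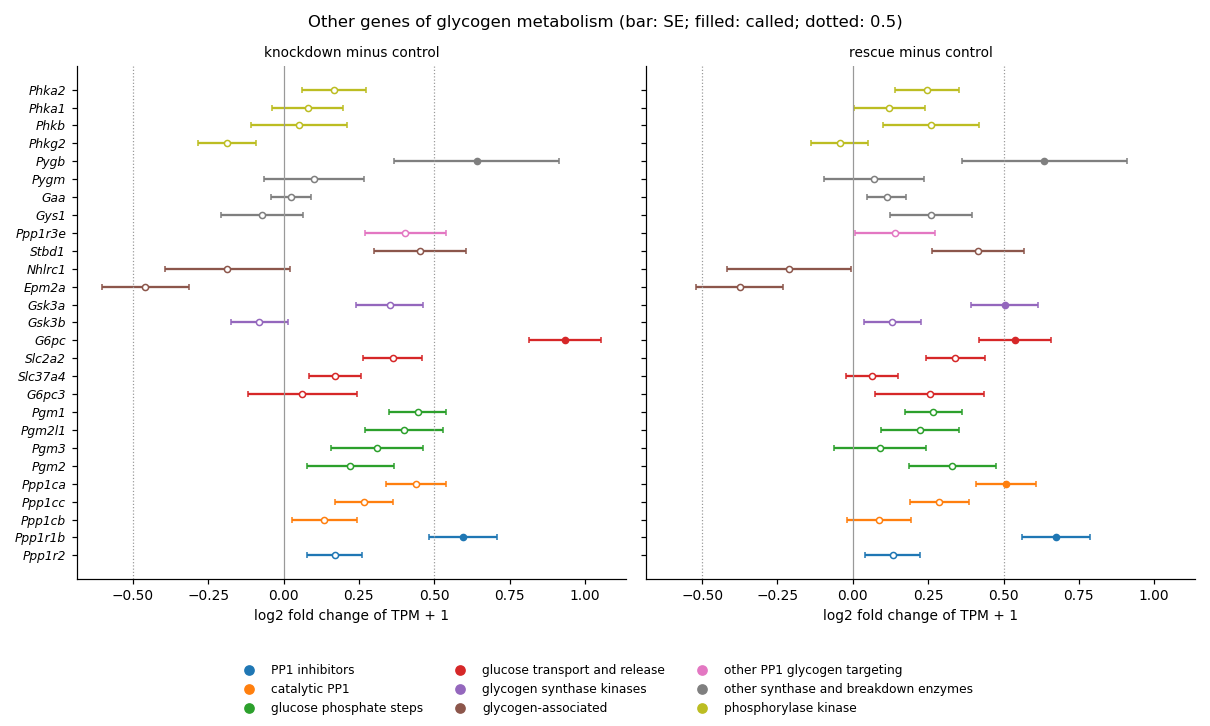
Log2 fold change of TPM + 1 (x axes) of tested genes of the wider glycogen list against control, after knockdown (left) and in the rescue (right); colours mark roles, bars are SE, and filled points passed the threshold of 0.5 (dotted lines) with unadjusted P under 0.05. Values are as deposited, without the scaling that removes the shift of all genes, and G6pc is the farthest after knockdown.

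Markers of other cells were set beside these results. Of the 6 Kupffer cell markers 1 passed the threshold after knockdown, Marco (-1.04 ± 0.40), of 5 endothelial markers 1, Stab2 (0.54 ± 0.13), of 3 tested cholangiocyte markers 1, Sox9 (0.64 ± 0.24), and of the 5 T and NK cell and 6 stellate markers 0. The cholangiocyte list held 4 genes, of which Krt7 was too low to be tested. Among all tested genes 5.35% passed upwards and 2.30% downwards after knockdown, and 6.84% and 0.641% in rescue against control. The summed Kupffer markers ran from 168 to 219 TPM in Ad-Ctrl, 125 to 222 TPM in Ad-shmGULL and 165 to 219 TPM in Ad-shmGULL+hGULL, and the endothelial ones from 85.0 to 149.5, 141 to 185 and 136 to 166 TPM. T and NK cell markers summed to 16.6 to 63.6, 18.3 to 40.2 and 27.9 to 42.6 TPM, stellate markers to 105 to 177, 141.5 to 163 and 137 to 146.5 TPM, and cholangiocyte markers to 6.07 to 11.6, 7.92 to 17.0 and 9.29 to 12.4 TPM. Of the 6 hepatocyte markers Fgb (-0.52 ± 0.13) and Apoa1 (-0.60 ± 0.20) passed after knockdown, and in the rescue against control Apoa1 (-0.60 ± 0.20) and Marco (-0.93 ± 0.40) passed, and the hepatocyte list summed to 70180 to 102600 TPM in control, 72800 to 84280 TPM in knockdown and 61710 to 75760 TPM in rescue livers. None of these markers was at 0 in all mice, and their part in the glycogen genes' differences was not tested.

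The genes whose log2(TPM + 1) followed a glycogen gene most closely over the 12 mice, among 10940 others with a mean of at least 5 TPM, differed from member to member. For Gbe1 they were Aldh1a7 (r = 0.982) and Slc35f6 (0.978), for Ugp2 Fto (0.960) and Gdi2 (0.953), for Gyg Lgals3 (0.958) and Nbas (0.956), and for Gys2 Tmem25 (0.901) and Abca8a (0.868). Ppp1r3b was followed by Wfdc2 (0.977) and Gstt3 (0.966), Ppp1r3g by Tfeb (0.889) and Reln (0.886), and Ppp1r3c by Mir1192 (0.831) and Tasp1 (0.785). With group means removed the values for Gbe1, Ugp2 and Gyg stayed at or above 0.946, while those for Ppp1r3c were 0.633 and 0.559. These are descriptions over mice that share groups and differ in scale, and no p is attached.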

How the data were processed

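Liver RNA of 12 mice was sequenced, with 4 mice in each of 3 groups taken from the sample labels. Per the submitters' processing notes the authors used fastp 0.23.2, FastQC 0.11.8, HISAT2 2.2.1.0 on GRCm38.p6 and featureCounts (Subread 2.0), with GENCODE VM24 genes, and deposited TPM. Libraries were strand-specific, and the counting's strand setting is not given in the sources used here. Each mouse sums to 1000000 TPM, so depth is unknown and no counting interval is given. Precision is that of the spread between 4 mice, and a fold change on the log2(TPM + 1) scale understates that of low genes such as Ppp1r3g.

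Features averaging 1 TPM or more were fitted with limma 3.58.1 (R 4.3.3) on log2(TPM + 1), with 3 groups in 1 model, no covariate, and moderated variances with a trend. Ratios within mice were compared by exact two-sided permutation tests in Python 3.11.15. Both procedures were tested on simulated data. Figures were drawn with matplotlib 3.10.9. Alternatives were no filter, a stricter one of 5 TPM, a pseudocount of 0.1, median-of-ratios scaling, only the 2 groups compared, no trend, a replicate block, and leaving out each mouse. The glycogen genes and lists were chosen with earlier results of these data known. All 8 genes were named, with the other listed genes past the threshold in any comparison, the most abundant of each role, and the 2 genes most alike to each of the 8. A few of these are not reported here.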

Additional observations from a re-analysis of the deposited data

Results flagged for a closer look

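In groups of 4 mice, a highest or lowest value was singled out when its gap to the next exceeded Dixon's critical share of the range, which chance does for about 1 in 20 groups. Of the 45 groups examined (8 genes and 7 ratios in 3 groups each), 2 were singled out. Ppp1r3g was at 14.37 TPM in Ad-shmGULL replicate 1, with a gap of 0.878 of the group's range. The ratio of Gys2 to Gys1 was 86.57 in Ad-shmGULL+hGULL replicate 3, with a gap of 0.832 of the range.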

How the results depend on the processing

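Of the fold changes of the 8 genes under all alternatives, 439 values kept direction and call, 2 gained the call, 8 lost it and 7 changed sign; of the ratios 168, 3, 4 and 14 did so. The causes of these changes were not tested. Members with an adjusted p under 0.05 numbered 3 in knockdown against control, and 0 with only those 2 groups in the fit. In rescue against control they numbered 2, and 0 without a filter, with median-of-ratios scaling or without a trend, 4 with only the 2 groups, 1 with a replicate block and 0 to 3 when a mouse was left out, being 0 in 8 of the 12 omissions (Ad-Ctrl replicates 2, 3 and 4, Ad-shmGULL replicate 4 and each rescue mouse). The count over all genes moved as well. After knockdown it was 529, and 33 with only the 2 groups. In rescue against control it was 352, and 9 without a filter, 11 with median-of-ratios scaling and 35 without a trend. It was 1693 with only the 2 groups, 71 with a replicate block and 3 to 26 in the 8 omissions named. Over all tested genes same-numbered mice did not deviate together (r from -0.244 to 0.154). A factor shared by same-numbered mice in few genes would not show in this r, and the labels do not say whether the numbers pair the mice. With the replicate block the adjusted p was 0.071 for Ppp1r3g after knockdown and 0.061 for Ppp1r3b in rescue against control. Members past the threshold between rescue and knockdown numbered 0 to 1 on leaving out a mouse. Genes of the wider list past the threshold numbered 2 (without Ad-Ctrl replicate 2) to 7 (without Ad-Ctrl replicate 1) after knockdown, and 2 (without rescue replicate 2) to 6 in rescue against control, with 3 without Ad-Ctrl replicate 2 or 3 and 2 with median-of-ratios scaling. Of all genes 1253 passed the threshold after knockdown, 1024 without Ad-Ctrl replicate 2 and 1646 without Ad-Ctrl replicate 1. In rescue against control 1226 passed, and 983 without rescue replicate 2. Without Ad-Ctrl replicate 2 or 3 there were 861 and 1172, and with median-of-ratios scaling 721. Pygl in rescue against control ran from 0.48 to 0.58, falling below 0.5 without Ad-Ctrl replicate 4 or rescue replicate 1 or 2. Sign changed with median-of-ratios scaling for rescue minus knockdown of Ugp2 (-0.012), Gys2 (-0.0064) and Ppp1r3c (-0.0007). On leaving out a mouse the log2 difference ran from -0.21 to 0.024 for Gyg after knockdown and, between rescue and knockdown, from -0.052 to 0.24 for Ugp2, -0.13 to 0.0058 for Ppp1r3b and -0.025 to 0.18 for Ppp1r3c. The ratio of Gys2 to Pygl ran from -0.59 to -0.41 after knockdown (exact permutation p = 0.0571 without any single control mouse) and from -0.43 to -0.25 in rescue against control. Gbe1 to Gys2 ran from -0.084 to 0.32 between rescue and knockdown and from 0.40 to 0.90 in rescue against control, and Ppp1r3g to Ppp1r3b from -1.23 to -0.59 between rescue and knockdown. Ugp2 to Gys2 ran from -0.063 to 0.25 after knockdown, -0.15 to 0.17 between rescue and knockdown and -0.020 to 0.19 in rescue against control. Pygl to Pygb ran from -0.33 to 0.16, -0.21 to 0.0073 and -0.42 to 0.071 in the same comparisons. The split of all genes past the threshold also moved with median-of-ratios scaling: 876 higher and 377 lower became 608 and 571 after knockdown, 382 and 110 became 250 and 163 between rescue and knockdown, and 1121 and 105 became 481 and 240 in rescue against control. Depth cannot be read from TPM, which limits what can be said of Ppp1r3g and other low genes.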
